A study of Homo sapiens with 6 samples.

Results

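The probe sets of chromosome 13 were compared between a pair of human colorectal cancer cell lines. They were all probe sets whose identifier starts with TC13, the array maker's prefix for transcript clusters on that chromosome, and numbered 353 of the 21448 on the array. Of these, 288 carried 1 gene symbol and 65 are unnamed here. RNA of KM12SM cells, a derivative of the KM12 colon cancer line selected for metastasis to the liver, was hybridised to 3 arrays, and RNA of SW620 cells, from a lymph-node metastasis of a colorectal tumour, to another 3. Both lines were grown untreated in the same medium with 10% foetal bovine serum, each line stands for 1 tumour, and the labels do not say whether the RNA came from separate cultures, so that the p-values cover only the spread among these 3 RNA samples of a line, and part or all of it may be technical.

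Chromosome 13 is acrocentric, and its protein-coding genes lie on the long arm, 13q. It carries RB1, the retinoblastoma tumour suppressor that holds cells before S phase, and the gut transcription factor genes CDX2 and KLF5. In colorectal cancer, gain of 13q is among the common chromosome-arm changes, and an extra copy of a region tends to raise the transcripts of many genes in it by a modest amount. The question here was whether the chromosome 13 probe sets were more often higher in SW620 than those of other autosomes, as a sign of such a gain. DNA copy number was not measured on these arrays.

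The promoters of 6 of the genes are given first, as context for their differences between the lines. TEX30 and LCP1 had the widest differences upward in SW620 and CLDN10 and GJB2 those downward. LIG4 and UCHL3 each share their start region with a neighbour on the opposite strand, ABHD13 and COMMD6. Each sequence runs from 250 bases before to 50 bases after the gene's start in RefSeq (GRCh38.p14), 5′ to 3′ on the gene's strand, with every CG in capitals.
TEX30 (chr13:102773737-102774036, minus strand): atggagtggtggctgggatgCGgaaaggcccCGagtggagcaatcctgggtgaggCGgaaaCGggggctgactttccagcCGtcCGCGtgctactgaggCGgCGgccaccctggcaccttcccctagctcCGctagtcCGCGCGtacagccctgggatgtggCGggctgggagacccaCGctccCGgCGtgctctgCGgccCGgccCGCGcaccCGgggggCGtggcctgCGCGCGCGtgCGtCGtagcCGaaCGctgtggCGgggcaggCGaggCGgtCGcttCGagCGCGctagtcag
LCP1 (chr13:46182128-46182427, minus strand): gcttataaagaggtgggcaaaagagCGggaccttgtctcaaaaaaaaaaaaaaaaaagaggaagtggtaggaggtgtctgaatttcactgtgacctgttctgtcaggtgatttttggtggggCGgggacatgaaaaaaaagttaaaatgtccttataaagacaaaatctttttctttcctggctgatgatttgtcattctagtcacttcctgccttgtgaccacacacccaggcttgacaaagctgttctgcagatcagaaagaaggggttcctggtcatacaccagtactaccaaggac
CLDN10 (chr13:95433505-95433804, plus strand): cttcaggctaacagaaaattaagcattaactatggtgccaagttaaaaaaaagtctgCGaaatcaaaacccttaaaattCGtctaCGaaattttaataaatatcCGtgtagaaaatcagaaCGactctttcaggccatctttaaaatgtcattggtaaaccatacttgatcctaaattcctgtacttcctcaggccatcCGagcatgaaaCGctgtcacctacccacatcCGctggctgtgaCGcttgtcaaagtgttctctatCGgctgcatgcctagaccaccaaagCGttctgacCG
GJB2 (chr13:20192889-20193188, minus strand): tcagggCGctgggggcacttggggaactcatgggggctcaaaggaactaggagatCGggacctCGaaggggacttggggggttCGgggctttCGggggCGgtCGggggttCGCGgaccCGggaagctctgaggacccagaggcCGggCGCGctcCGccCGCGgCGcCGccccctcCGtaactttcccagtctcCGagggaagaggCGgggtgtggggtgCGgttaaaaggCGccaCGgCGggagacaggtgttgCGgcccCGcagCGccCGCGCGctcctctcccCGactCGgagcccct
LIG4 (chr13:108218300-108218599, minus strand): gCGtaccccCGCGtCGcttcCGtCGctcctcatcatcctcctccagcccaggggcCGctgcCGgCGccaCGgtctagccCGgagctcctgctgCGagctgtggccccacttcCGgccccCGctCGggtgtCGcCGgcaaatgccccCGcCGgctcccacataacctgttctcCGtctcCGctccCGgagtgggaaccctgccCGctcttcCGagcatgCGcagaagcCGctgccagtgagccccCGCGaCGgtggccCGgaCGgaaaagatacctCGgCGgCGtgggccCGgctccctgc
UCHL3 (chr13:75549252-75549551, plus strand): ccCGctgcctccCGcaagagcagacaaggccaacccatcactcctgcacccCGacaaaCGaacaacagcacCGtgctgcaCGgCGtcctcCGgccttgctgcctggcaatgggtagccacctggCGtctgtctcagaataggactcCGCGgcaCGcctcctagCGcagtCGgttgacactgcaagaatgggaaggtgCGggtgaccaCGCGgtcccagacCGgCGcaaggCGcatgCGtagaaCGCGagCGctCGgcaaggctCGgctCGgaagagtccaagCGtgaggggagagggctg

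The motif counted was CG, which reads the same on both strands. The TEX30 promoter holds 38, and 9.91% of the 35116 promoters of the same length in the table hold as many or more. LCP1 stands at the other end with 2, a number that 89.0% of promoters reach. The CLDN10 promoter holds 12 (53.1% reach this), GJB2 33 (17.2%), LIG4 35 (14.1%) and UCHL3 28 (26.2%). Both directions of change thus included a promoter rich in CG and one with fewer. Methylation was not measured.

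Signals are log2 RMA values, which are background-corrected, normalised and summarised intensities. Each difference is SW620 minus KM12SM, so that a positive value is higher in SW620. A probe set was called when its limma p-value, adjusted by Benjamini-Hochberg over all 21448 probe sets, was under 0.05. On chromosome 13, 41 probe sets (11.6%) were called higher in SW620, against 12.4% of all probe sets on the array and 12.03% of the 19596 on the other autosomes. Called lower in SW620 were 80 (22.7%), against 12.6% of all probe sets and 12.95% on the other autosomes. At 2-fold or more, 22 were called higher (6.23%, against 4.86% of all probe sets) and 37 lower (10.5%, against 5.58%). Counted without regard to calls, 154 of the 353 had a higher mean in SW620 and 195 a lower one. The share with a higher mean was 43.6%, and it was 48.5% on the other autosomes, so the chromosome as a whole did not have a larger share higher in SW620. Whether copy number had a part in these shares was not tested. The median difference was -0.07 (quartiles -0.49 and 0.27) against -0.01 elsewhere. It was -0.04 without KM12SM replicate 3, -0.027 and -0.02 with the arrays centred on the median of all probe sets or of the other autosomes, and -0.15 without probe sets under the median signal.

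Among the 22 autosomes, chromosome 13 ranked 18th by the share of probe sets with a higher mean in SW620 (15th without KM12SM replicate 2). By the share called lower it ranked first, above chromosomes 18 (19.2%), 8 (19.2%) and 4 (19.1%). By the share called in either direction it also ranked first, with 34.3% against 25% over all probe sets. By the share called higher it ranked 13th, and chromosomes 7 (19.6%) and 20 (18.6%) led. These shares are descriptions: genes of a chromosome are not replicates, and the order was not tested.

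**Figure D1:**
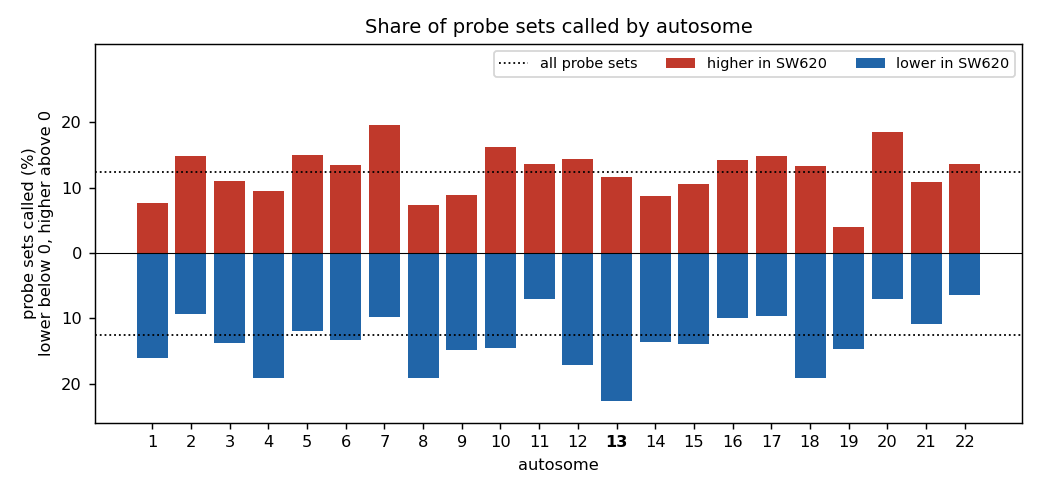
Share of probe sets called in limma (adjusted p under 0.05) on each autosome, in percent, higher in SW620 above 0 and lower in SW620 below 0. The dotted lines give the shares over all probe sets (12.4% and 12.6%), and chromosome 13 has the longest bar below 0 (22.7%) with a bar above 0 (11.6%) close to the line.

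The signal level of the probe sets was set beside these shares, since dim probe sets are seldom called. The probe sets of the autosomes were split by their mean over the 6 arrays into 3 equal groups, dim, middle and bright. In the dim group, 15 of 137 chromosome 13 probe sets (10.9%) were lower in SW620, against 5.66% on the other autosomes. The middle group had 34 of 94 lower (36.2% against 15.7%) and the bright group 31 of 122 (25.4% against 17.5%). The share called lower was thus above that of the other autosomes at each level. Called higher were 3.65%, 12.8% and 19.7% of chromosome 13 from the dim to the bright group, against 5.40%, 12.9% and 17.8% elsewhere.

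The 6 arrays separated by line on chromosome 13 alone. Pearson's r over the 353 probe sets was 0.981 to 0.993 between arrays of the same line and 0.879 to 0.903 between lines. Over all probe sets it was 0.919 to 0.926 between lines. The array medians over all probe sets lay between 6.71 and 6.78, with the 3 SW620 arrays (6.71 to 6.74) below the 3 KM12SM arrays (6.75 to 6.78). Of 7 measured markers of colorectal epithelium, EPCAM, KRT8, KRT18 and KRT19 stood above the 97th percentile of signals in both lines. CDH1, the cadherin of epithelial junctions, averaged 9.25 in KM12SM and 5.55 in SW620, VIL1, the villin of the brush border, 7.52 and 8.33, and CDX2 8.97 and 8.03. Of 4 leukocyte markers, PTPRC was near the 10th percentile in both lines, and CD3E, CD14 and CD79A lay between percentiles 30.3 and 65.5. Markers of fibroblasts (COL1A1, COL1A2 and DCN) lay between percentiles 33.8 and 75.6, and those of endothelium (PECAM1, CDH5 and VWF) between percentiles 21.9 and 66.3. Percentiles of different probe sets are not levels, and the part of other cells was not tested.

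The RefSeq gene order split the chromosome. The 288 named genes were placed in order from the centromere and divided into 8 blocks of 36 neighbours. From the centromere outward the block medians were -0.47 (TUBA3C to CDK8), -0.34 (WASF3 to STARD13), -0.28 (RFC3 to DGKH), -0.22 (AKAP11 to MLNR) and -0.07 (CDADC1 to LINC00550). They then turned positive, with 0.22 from KLHL1 to UGGT2, 0.14 from HS6ST3 to ABHD13 and 0.14 from TNFSF13B to CHAMP1. Genes near the centromere were therefore mostly lower in SW620 and genes of the outer blocks mostly higher.

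Calls followed the same order. Over all probe sets 12.4% were called higher and 12.6% lower. In the block nearest the centromere 1 gene was called higher (2.78%) and 16 lower (44.4%), and in the next 2 (5.56%) and 15 (41.7%). Block 3 had 1 higher (2.78%) and 11 lower (30.6%), and block 4 had 3 (8.33%) and 11 (30.6%). In block 5 the counts were 5 (13.9%) and 4 (11.1%). From block 6 on, higher calls outnumbered lower ones. They were 8 against 5 (22.2% and 13.9%), 12 against 4 (33.3% and 11.1%) and 6 against 5 (16.7% and 13.9%). Blocks 5 and 8 were thus close to the shares over all probe sets. The share of genes with a higher mean in SW620 was 16.7% in block 1 and 63.9% in blocks 6 and 7.

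**Figure D2:**
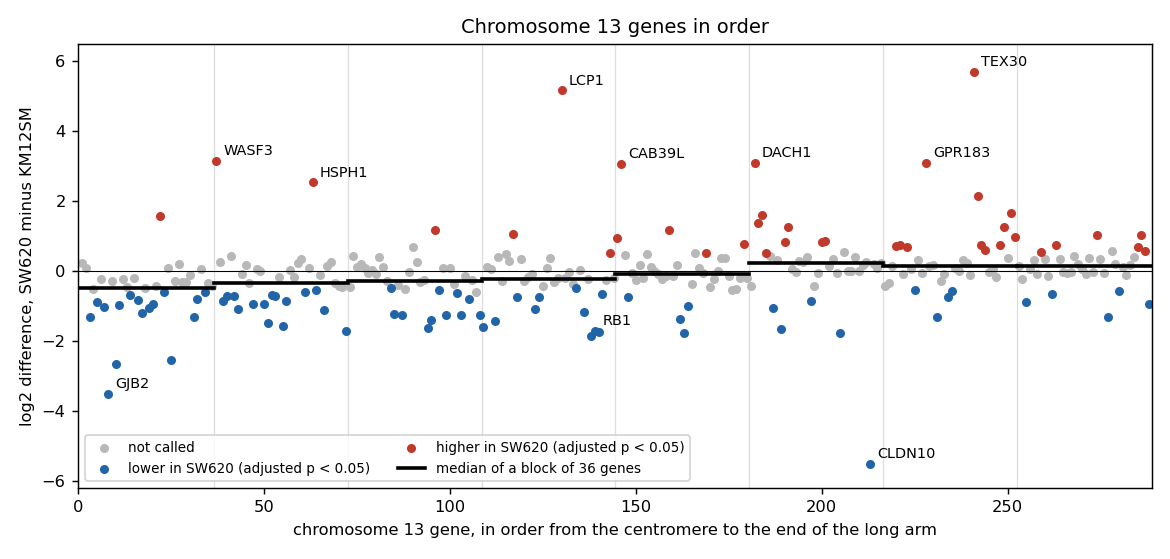
Log2 difference (SW620 minus KM12SM) of 288 chromosome 13 genes in RefSeq order from the centromere, with called genes in red (higher in SW620) and blue (lower). The black bars are the medians of blocks of 36 genes, which run from -0.47 at the centromere to 0.22 in block 6 and 0.14 in the last.

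When the first 4 and the last 4 blocks were joined, a grouping chosen after the values were seen, the inner 144 genes had a median of -0.32. Of them 7 were called higher (4.86%) and 53 lower (36.8%), against 12.4% and 12.6% of all probe sets. The outer 144 had a median of 0.11, with 31 called higher (21.5%) and 18 lower (12.5%), the latter a share like that over all probe sets. A higher mean in SW620 was found for 29.2% of the inner and 57.6% of the outer genes. Among genes at or above the median signal of the array, the medians were -0.49 for 69 inner genes and 0.29 for 80 outer genes, wider apart than over all genes.

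Each array showed the split. The median deviation of the inner genes from their mean over the 6 arrays was 0.11, 0.19 and 0.17 on the 3 KM12SM arrays and -0.11, -0.17 and -0.21 on the 3 SW620 arrays. For the outer genes it was -0.08, -0.12 and -0.01 on the KM12SM arrays and 0.08, 0.10 and 0.04 on the SW620 arrays. The lines did not overlap in either group of genes, though KM12SM replicate 3 came close to 0 in the outer one. By block, all 3 KM12SM arrays were above 0 and all 3 SW620 arrays below 0 in blocks 1 to 4. Blocks 7 and 8 had the reverse on all 6 arrays, while in block 6 KM12SM replicate 3 also lay above 0 (0.02).

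**Figure D3:**
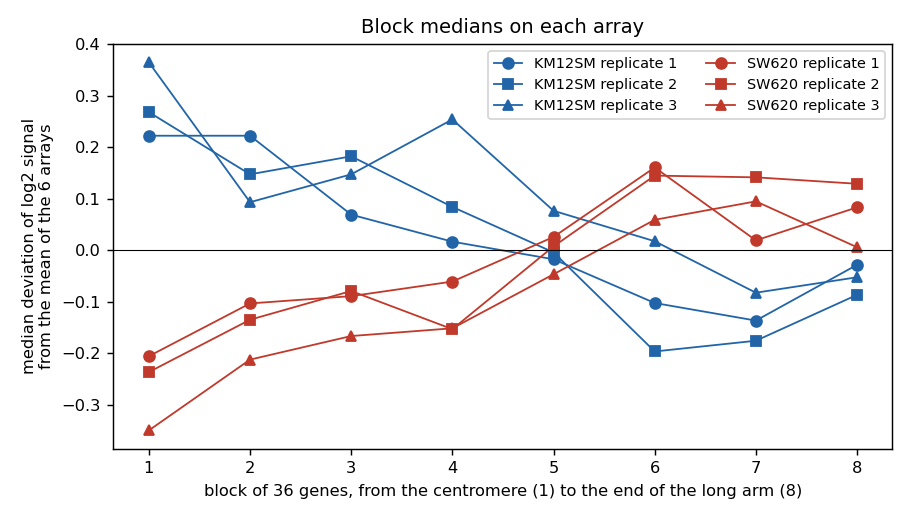
Median deviation of log2 signal from the mean of the 6 arrays, for blocks of 36 genes in order from the centromere, with 1 line per array. KM12SM arrays (blue) lie above SW620 arrays (red) in blocks 1 to 4, the lines meet in block 5, and SW620 arrays lie above in blocks 6 to 8.

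Blocks of 36 neighbours on the other autosomes gave the scale for these medians. Over 451 such blocks the median was -0.02, the 5th percentile -0.23 and the 95th percentile 0.24. Only 2 of the 451 were as low as the block nearest the centromere, and 4, 9 and 24 were as low as blocks 2, 3 and 4. At the outer end, 27 were as high as block 6, 51 as high as block 7 and 52 as high as block 8. The medians of blocks 1 to 3 thus lay below the 5th percentile. Those of blocks 4 to 8 lay between the 5th and the 95th percentile, as a description with no test. Across 287 pairs of adjacent genes on chromosome 13, the differences of neighbours had a Spearman correlation of 0.28 and a Pearson correlation of 0.21, against 0.04 to 0.23 and 0.06 to 0.23 on the other autosomes. All points share the same 6 arrays, and genes are not independent replicates.

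Adjacent genes called in the same direction formed 4 runs of 4 genes. PAN3, FLT1, POMP and SLC46A3 were lower in SW620 in block 2, and ITM2B, RB1, LPAR6 and RCBTB2 in block 4. DACH1, MZT1, BORA and DIS3 were higher in block 6, and TEX30, POGLUT2, BIVM and BIVM-ERCC5 in block 7. BIVM-ERCC5 is a read-through transcript that contains the exons of BIVM, so its probe set and that of BIVM may share RNA. Shorter runs of 3 were ATP7B, NEK5 and NEK3, lower in block 5, and GAS6, RASA3 and CDC16, higher in block 8.

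TEX30, a testis-expressed gene of little-known function in block 7, had the largest difference on the chromosome. Its signals (probe set TC1300009673.hg.1) were 3.98, 3.75 and 4.45 on the KM12SM arrays and 9.82, 9.79 and 9.69 on the SW620 arrays. The difference of 5.71 (SE 0.19) is 52.2-fold, with an adjusted p of 6.75e-12. The KM12SM mean of 4.06 was at percentile 11.9 of the signals in that line, close to that of PTPRC, so the fold was taken against a signal near the floor of the array and its size is uncertain. The lines were far apart, and the gene sits next to POGLUT2, a glucosyltransferase that modifies EGF repeats of Notch and fibrillin proteins. POGLUT2 gave 6.44, 6.80 and 6.49 in KM12SM and 8.80, 8.91 and 8.44 in SW620, a difference of 2.14 (SE 0.18; 4.41-fold; adjusted p 2.52e-07).

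LCP1, which encodes the actin-bundling protein L-plastin known mainly from leukocytes and from carcinoma lines, lies among the inner genes but was higher in SW620. Its signals (TC1300008840.hg.1) were 5.49, 4.38 and 5.02 in KM12SM and 10.19, 10.40 and 9.84 in SW620. The 36.3-fold difference (log2 5.18, SE 0.24, adjusted p 2.25e-10) left a wide gap between the lines. WASF3, a WAVE protein that drives actin branching, was also an inner gene and 8.96-fold higher in SW620 (log2 3.16, SE 0.26, adjusted p 1.39e-07). HSPH1, a large chaperone of the HSP110 family, rose from 9.16, 8.90 and 9.40 to 11.80, 11.72 and 11.58 (5.84-fold, adjusted p 2.21e-08). All 3 ran against the median of their blocks. The KM12SM means of LCP1 and WASF3 were at percentiles 23.5 and 12.3 of that line, so the size of both folds is uncertain.

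Further out, 3 genes with a role in signalling or transcription were higher in SW620 by close to the same factor. GPR183, the oxysterol receptor that guides migrating lymphocytes, gave 4.18, 4.25 and 3.56 in KM12SM and 7.23, 7.48 and 6.60 in SW620 (8.61-fold, adjusted p 5.99e-08). DACH1, a transcription cofactor of the retinal determination network, gave 5.00, 4.66 and 4.99 against 8.01, 8.29 and 7.64 (8.55-fold, adjusted p 6.24e-09). CAB39L, a scaffold of the LKB1 kinase complex, gave 5.04, 5.25 and 5.14 against 8.16, 8.37 and 8.12 (8.42-fold, adjusted p 1.11e-09). No overlap between the lines was a condition of their choice. Their KM12SM means lay at percentiles 11.03, 22.4 and 26.03 of that line, low enough to leave the size of the folds uncertain.

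CLDN10, which encodes a claudin of tight junctions that forms paracellular ion pores, had the largest difference in the other direction. Its signals (TC1300007752.hg.1) were 10.58, 10.68 and 10.41 in KM12SM and 5.28, 5.03 and 4.83 in SW620. It was 45.6-fold lower in SW620 (log2 -5.51, SE 0.18, adjusted p 4.81e-12). The SW620 mean was at percentile 24.6 of that line, so the size of the fold is uncertain. The gene is in block 6, where the median was above 0. GJB2, the gap-junction gene of connexin 26, lies near the centromere and gave 9.24, 9.53 and 9.23 in KM12SM (TC1300008249.hg.1) against 6.02, 5.76 and 5.71 in SW620. That difference was -3.50 (SE 0.17; 11.3-fold; adjusted p 4.01e-10), and a second connexin gene, GJA3, was lower by a log2 difference of -1.03 (adjusted p 0.00038).

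Lower in SW620 by more than 5-fold were also CRYL1, an enzyme of sugar-acid metabolism (log2 -2.66, adjusted p 5.12e-08), and PARP4, the poly(ADP-ribose) polymerase of vault particles (log2 -2.55, adjusted p 4.07e-07). Both lie in block 1. NEK5, a kinase of the NIMA family, and SLITRK6, a leucine-rich transmembrane protein, each had a difference of -1.78. STARD13 had one of -1.71. For these 5 genes, no overlap between the lines was a condition of their choice. The SW620 means of SLITRK6, STARD13 and NEK5 were at percentiles 12.7, 19.7 and 25.01 of that line, so the size of these differences is uncertain.

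**Figure D4:**
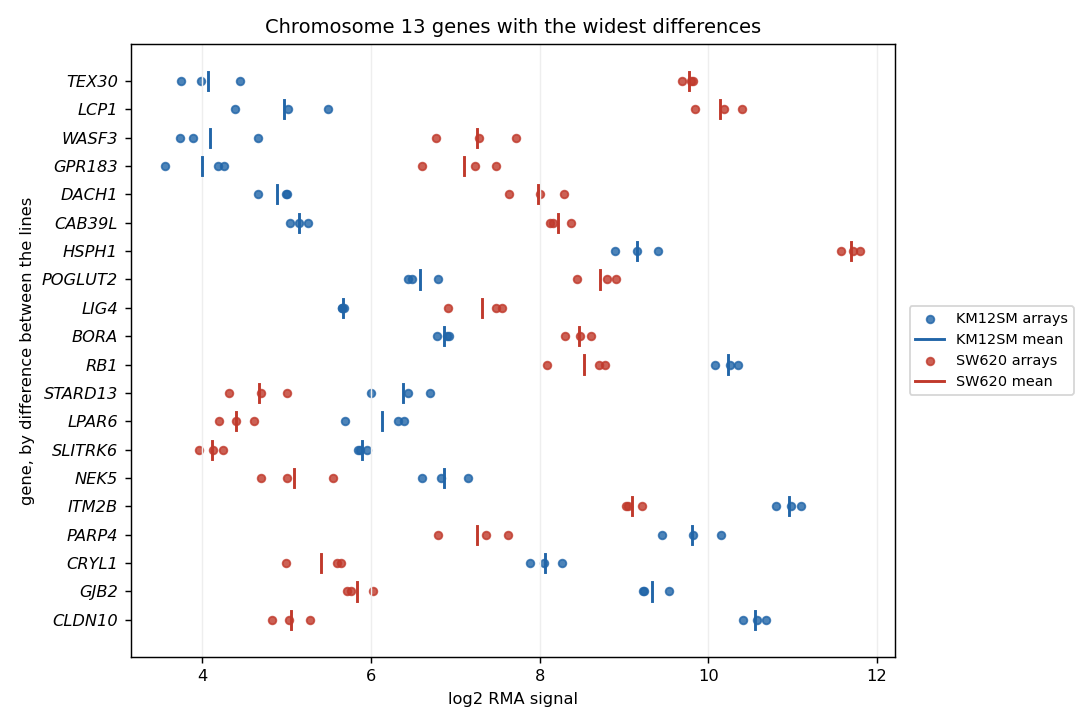
Log2 RMA signals of the 10 named chromosome 13 genes with the largest differences in each direction, on 3 KM12SM arrays (blue) and 3 SW620 arrays (red), with vertical bars at the means. Only called genes whose arrays did not overlap between the lines were eligible. They run from TEX30 (5.71 higher in SW620) to CLDN10 (log2 difference -5.51), and signals of different genes are not comparable.

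RB1 and its neighbours fell together in SW620. RB1 gave 10.35, 10.08 and 10.26 on the KM12SM arrays and 8.78, 8.71 and 8.09 on the SW620 arrays. It was 3.26-fold lower (log2 -1.70, SE 0.20, adjusted p 7.85e-06), with SW620 replicate 3 the lowest. ITM2B, an integral membrane protein whose mutations cause familial dementia, lies next to it and gave 11.10, 10.98 and 10.80 against 9.22, 9.05 and 9.03 (3.63-fold lower, adjusted p 4.45e-07). LPAR6, a lysophosphatidic acid receptor encoded within an intron of RB1 on the opposite strand, was 3.32-fold lower (adjusted p 9.10e-06). The SW620 mean of LPAR6 was at percentile 16.4 of that line, so the size of its fold is uncertain. SUCLA2, a subunit of the succinyl-CoA ligase of mitochondria, was 2.27-fold lower in the same block (adjusted p 7.58e-05). Of 13 measured genes on a list of tumour suppressors, these 2 neighbours ITM2B and RB1 and the forkhead factor FOXO1 (log2 -1.25, adjusted p 0.000631) were lower. DACH1 was higher and 9 were not called, with a list median of -0.18. The shares were 23.1% lower and 7.69% higher, against 12.6% and 12.4% of all probe sets.

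The run in block 6 went the other way. MZT1, a small subunit of the gamma-tubulin ring complex, gave 8.61, 8.92 and 8.87 in KM12SM and 10.33, 10.33 and 9.90 in SW620 (2.61-fold higher, adjusted p 2.65e-05). BORA, an activator of Aurora A that leads to PLK1 activation in mitosis, gave 6.78, 6.90 and 6.93 against 8.48, 8.61 and 8.30 (3.02-fold higher, adjusted p 2.49e-06). The lines did not overlap for either gene, which for BORA was a condition of its choice. DIS3, the catalytic exosome ribonuclease, was higher by 0.52 (SE 0.17, adjusted p 0.0325). That call was lost without KM12SM replicate 1 (adjusted p 0.0970), KM12SM replicate 2 (0.0961), SW620 replicate 1 (0.144) or SW620 replicate 2 (0.109).

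MZT1 and BORA are transcribed away from each other from nearby starts, and 11 such head-to-head pairs were found among the named genes, with RefSeq starts at most 1000 bases apart on opposite strands. In 5 pairs both genes were called, and in all 5 they were called in the same direction. Higher in SW620 were MZT1 with BORA, COMMD6 (log2 0.84) with UCHL3 (1.27), POGLUT2 (2.14) with BIVM (0.74) and LIG4 (1.65) with ABHD13 (0.96). Lower were PROSER1 (-1.62) and NHLRC3 (-1.39). In 3 pairs only 1 gene was called, SKA3 without MRPL57, LNX2 without POLR1D and DIS3 without PIBF1, and 3 pairs had no call. Of single probe sets, 25% were called over the array and 34.3% on chromosome 13, and 11 pairs are few. The sign of the difference was shared in 10 of 11 pairs. The pairs called higher lie in blocks 6 and 7, where 63.9% of genes had a higher mean in SW620. The lower pair lies in block 3, where 33.3% did. Neighbours along the whole chromosome were also correlated (Spearman 0.28). The pairs were not compared with other neighbours, so a shared start was not separated from shared position.

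The CG-rich sequences given above for LIG4 and UCHL3 cover the starts of both genes of their pairs. LIG4, the ligase that seals double-strand breaks in non-homologous end joining, gave 5.65, 5.68 and 5.66 in KM12SM and 7.48, 7.55 and 6.91 in SW620 (3.14-fold, adjusted p 6.76e-06). UCHL3, a ubiquitin and NEDD8 hydrolase, gave 9.31, 9.54 and 9.43 against 10.66, 10.75 and 10.68 (2.41-fold, adjusted p 2.14e-05). In both genes every SW620 array was above every KM12SM array, which for LIG4 was a condition of its choice.

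Genes often discussed as candidates on 13q in colorectal cancer were called in both directions. Of 19 measured, 3 were called higher in SW620 (BORA, MZT1 and DIS3; 15.8%, against 12.4% of all probe sets), 6 lower (31.6%, against 12.6%) and 10 neither, with a median of -0.08. CDX2, the homeobox factor of intestinal identity, gave 8.85, 8.92 and 9.14 in KM12SM and 8.10, 8.16 and 7.83 in SW620, and was 1.92-fold lower (adjusted p 0.000682). KLF5, a factor of crypt progenitors, gave 11.78, 11.72 and 12.09 against 10.85, 10.97 and 10.59, 2.08-fold lower (adjusted p 0.000311). Both were lower on every SW620 array.

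LNX2, a ubiquitin ligase for Numb, was lower by a log2 difference of -1.07 (adjusted p 0.000406), FLT1, a receptor of VEGF, by -1.49 (0.000109) and IRS2, an adaptor of insulin signalling, by -0.90 (0.00058). The SW620 mean of FLT1 was at percentile 12.4 of that line, so the size of its difference is uncertain. TFDP1, the partner of E2F factors, was lower by -0.58 (adjusted p 0.0163), a call lost without KM12SM replicate 1 (0.0603) or KM12SM replicate 2 (0.0736). CDK8, the Mediator kinase, had a difference of -0.41 (SE 0.19, adjusted p 0.142) and POLR1D, shared by RNA polymerases I and III, one of -0.08 (SE 0.16, adjusted p 0.786). For CUL4A, a cullin scaffold, and SPRY2, a brake on receptor tyrosine kinase signalling, the difference was 0.36 in each (adjusted p 0.156 and 0.154). Neither overlapped between the lines, and with array weights in the fit both were called (0.0147 and 0.00383).

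The counts of the lists that follow are descriptions to be read against 12.4% called higher and 12.6% called lower over all probe sets, and 11.6% and 22.7% over chromosome 13. Of 19 measured genes of cell cycle and mitosis, 5 were higher in SW620 (BORA, MZT1, CAB39L, CDC16 and SUGT1; 26.3%) and 7 lower (36.8%). The 7 were RB1, TFDP1, SKA3, NEK3, NEK5, MPHOSPH8 and STARD13, and the list median was -0.20. SKA3, a subunit of the complex that holds kinetochores to microtubules, was lower by -1.20 (adjusted p 5.05e-05). CDC16, a subunit of the anaphase-promoting complex at the outer end of the chromosome, was higher by 0.57 (adjusted p 0.0274). Of 13 genes of DNA repair and chromatin, LIG4 alone was higher (7.69%), and 4 (30.8%) were lower. The 4 were PARP4, MPHOSPH8 (log2 -1.32, adjusted p 0.00107), a reader of methylated histone H3, ZMYM5 (-0.88, 0.00108) and SAP18 (-0.83, 0.00224).

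Of 20 genes of ubiquitin and proteasome function, 4 were higher (UCHL3, WDFY2, OBI1 and CDC16; 20%) and 6 lower (30%). WDFY2, whose product is known from endosomes rather than from this pathway, was higher by 1.16 (adjusted p 0.000324). KBTBD6, an adaptor of cullin 3 ligases, gave 6.72, 6.74 and 6.70 in KM12SM and 5.55, 5.42 and 5.39 in SW620 (log2 -1.27, adjusted p 1.92e-05). POMP, a proteasome assembly factor, was lower by -0.68 (0.00769). Of 18 transcription factors, DACH1 was higher (5.56%) and 6 were lower (CDX2, KLF5, ZIC5, FOXO1, TFDP1 and TSC22D1; 33.3%), with a median of -0.25.

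Of 17 transporters and channels, 6 were lower (35.3%, against 12.6% of all probe sets) and 0 higher (against 12.4%); 17 genes are few for a share of that size. The lower genes were GJB2, GJA3, ATP7B, SLC7A1, SLC25A30 and SLC46A3. SLC7A1, the cationic amino acid transporter CAT1, gave 10.47, 10.50 and 10.34 in KM12SM and 8.77, 9.15 and 8.65 in SW620, a 2.99-fold difference (adjusted p 5.53e-06). ATP7B, the copper pump mutated in Wilson disease, was 2.60-fold lower (adjusted p 4.96e-05). Of 20 genes of mitochondria and metabolism, 3 were higher (HSPH1, ABHD13 and NAXD; 15%) and 7 lower (35%), among them CRYL1, SUCLA2 and the mitochondrial carrier SLC25A30 (log2 -1.09, adjusted p 0.000386). HSPH1 is a cytosolic chaperone and stands on that list although it is not known as a metabolic enzyme.

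Receptors, ligands and signalling genes were the longest list, with 33 measured, 8 higher (24.2%), 10 lower (30.3%) and a median of 0.00. Higher were GPR183, CAB39L, the TNF-family receptor TNFRSF19 (log2 1.57, adjusted p 3.22e-06), RASA3, EFNB2, RAP2A, GAS6 and STK24. TNFRSF19 was the only gene called higher in the block nearest the centromere. The 10 lower genes included TBC1D4, a Rab GTPase-activating protein of glucose transporter traffic (log2 -1.65, adjusted p 1.32e-05), LPAR6, FLT1, and AKAP11, an anchor of protein kinase A (-1.60, 6.97e-05).

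Of 27 genes of adhesion, matrix and coagulation, 2 were higher, 1 lower and 24 neither. That is 11.1% called, against 25% of all probe sets and 34.3% on chromosome 13. The 3 called were LCP1, PCDH9 and SLITRK6. Dim probe sets are seldom called: the share was 14.6% in the dim group of chromosome 13 and 11.07% in that of the other autosomes. Signal level was not separated from function in this list. PCDH9, a protocadherin, was higher by 0.77 (adjusted p 0.0217) with overlap between the lines, and lost the call without KM12SM replicate 1 (0.128), KM12SM replicate 2 (0.0632) or SW620 replicate 1 (0.113). Of 21 genes of RNA processing, transcription and the ribosome, DIS3 and RBM26 (log2 0.86, adjusted p 0.00181) were higher (9.52%). Lower were 5 (23.8%), namely SUPT20H, a subunit of the SAGA complex (-1.25, 0.000168), PAN3 of the deadenylase complex (-0.94, 0.000479), MTRF1, MTIF3 and WBP4. MTRF1, a mitochondrial release factor, was lower by -0.78 (adjusted p 0.00852), and its adjusted p was 0.0748 without replicates 3 of both lines. Of 22 genes of nuclear transport, trafficking and the endoplasmic reticulum, 3 were higher (HSPH1, IPO5 and RAP2A; 13.6%) and 7 lower (31.8%), with ALG5, a glycosylation enzyme (-1.22, 0.000142), and NUP58, a nucleoporin (-0.80, 0.00163), among the latter.

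**Figure D5:**
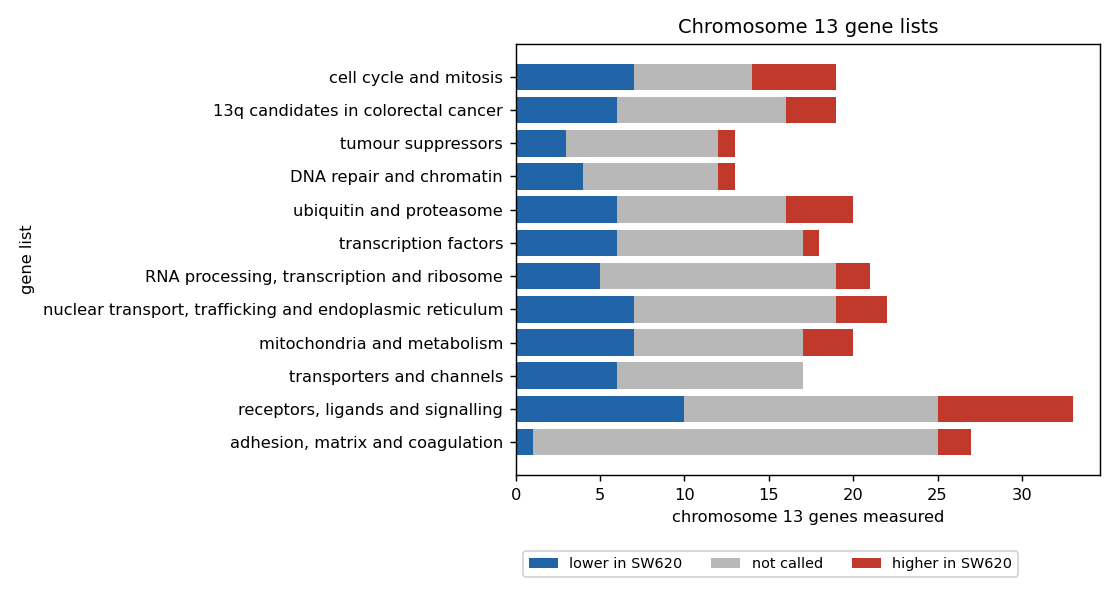
Number of measured chromosome 13 genes in each of 12 lists that were lower in SW620 (blue), not called (grey) or higher (red), by limma with adjusted p under 0.05. The longest list, receptors, ligands and signalling, has 8 genes higher and 10 lower of 33, beside shares of 12.4% and 12.6% over all probe sets. A gene can stand on more than 1 list.

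Lists overlap and draw on different stretches of the chromosome. The RNA processing list holds 15 inner and 6 outer genes and had a median of -0.23, while the adhesion list holds 8 inner and 19 outer genes and had one of -0.02. Position was not separated from function in these counts. On bulk RNA, a lower signal from fewer cells with a transcript and from less transcript per cell cannot be told apart.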

How the data were processed

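Total RNA of KM12SM and SW620 cells (3 arrays each, with line and replicate number from the labels) was hybridised to Clariom S human arrays after GeneChip WT PLUS labelling. The authors deposited log2 RMA signals made in Transcriptome Analysis Console. Its version and the genome build are not given in the sources used here. These values, between 2.36 and 13.79, were used as they stand. Arrays give no counts, and their number limits the precision: the median standard error of a difference was 0.18.

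All 21448 probe sets were fitted in R 4.3.3 with limma 3.58.1 (lmFit, eBayes, SW620 minus KM12SM, two-sided, no block, no filter), with Benjamini-Hochberg adjustment over all of them and a threshold of 0.05. The code was tested on simulated data. No test was made over members of the chromosome. The platform annotation gave 1 symbol to 17709 probe sets and several to 0. All 288 named chromosome 13 genes were found on that chromosome in the RefSeq table (GRCh38.p14), used for order only; 262 had a promoter there. On chromosome 13, 5 probe sets, among them PRR20C and PRR20D, which are near-identical copies, held the same values on all arrays.

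The members and lists were chosen with earlier results of these data known. Genes named by rule were the 10 largest folds in each direction among called genes whose arrays did not overlap, at most 4 called genes from each of 12 lists, and a fixed set of 13q genes. The other genes in the text, such as members of lists, runs and head-to-head pairs, were named after their values were seen. Same-numbered arrays of both lines had deviations that correlated at 0.06, 0.10 and 0.15, all weakly positive. These values do not settle whether the numbers pair the arrays. The main fit used no pairing, and counts with the replicate block are given below. Alternatives covered normalization, centring, filters, the replicate block, variance models, the call rule and each array left out.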

Additional observations from a re-analysis of the deposited data

How the results depend on the processing

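The share of chromosome 13 probe sets with a higher mean in SW620 (43.6%) was 46.2% after quantile normalization, 47.6% and 49.0% with arrays centred on the median of all probe sets or of the other autosomes, 45.6% without replicates 3 of both lines (an alternative added after the data were seen), and 42.5% to 46.2% with 1 array left out. The median was -0.041, -0.027 and -0.02 under the first 3, -0.15 without probe sets under the median signal, and -0.10 to -0.038 with 1 array left out. Its distance from the other autosomes was -0.13 without those dim probe sets, and the rank was then 14 (15 to 19 with 1 array left out). The difference in shares was -2.78 percentage points without replicates 3. Centring shifted the median of all probe sets from -0.01 to 0.03 or 0.04.

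With array weights, 89 were called higher and 115 lower (5028 and 5050 over all probe sets). Against a fold of 1.2 (limma treat), 30 were called higher and 52 lower (1570 and 1634 over all). At 2-fold the counts were 22 and 37 (1043 and 1197 over all). With 1 array left out they were 34 to 49 and 64 to 82 (1952 to 2902 and 2102 to 2688 over all). Taken as shares, the higher calls of chromosome 13 were above those over all probe sets with array weights, limma treat and the 2-fold rule. The same held with some single arrays left out, whereas the main fit had 11.6% against 12.4%. The lower calls were above those over all probe sets in each of these settings. With the replicate block, 43 were called higher and 83 lower (2793 and 2888 over all), and no call of a gene named by rule changed. The replicate block and the use of named probe sets alone leave the block medians as they are by construction. In the other 12 settings with other arrays, scales or filters, blocks 1 to 5 kept a median below 0 and blocks 6 to 8 one above 0. Of 51 genes named by rule, 6 changed a call in some alternative, all given with the results. MTRF1 (0.0647), PCDH9 (0.120), DIS3 (0.306) and TFDP1 (0.185) also missed the threshold against a fold of 1.2. The calls of the other genes in the text were not checked in this way. Among them MTIF3 was called (limma adjusted p 0.0412) though its arrays overlapped between the lines. With 3 arrays per line and no DNA measurement, small shifts of single genes could not be resolved.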

Other observations

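The 65 chromosome 13 probe sets unnamed here had a median difference of -0.07. Of them, 3 were called higher in SW620 (4.62%, against 12.4% of all probe sets) and 9 lower (13.8%, against 12.6%), and 44.6% had a higher mean in SW620.

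Promoters of called genes held more CG than those of the RefSeq table as a whole. The median was 26 for 35 genes called higher, 29 for 64 called lower, 22 for 163 not called and 14 over all 35116 promoters. No test was made, and dim genes are seldom called.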
